A study of Rattus norvegicus with 15 samples.

Results

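The genes described here are Mtmr7 and the other genes of the myotubularin family in the livers of fat-fed rats given an inhibitor of acetyl-CoA carboxylase. The family was taken by name, as every probe set of the array whose only gene symbol in the platform annotation is Mtm1 or begins with Mtmr. This gave 20 of 31099 probe sets and 12 of the 14217 genes that a probe set names alone, and Mtmr7 is 1 of the 12. Mtmr7 itself was singled out because of its difference between the 10 mg/kg and vehicle groups, so its group differences are given as a description with no p-value. The other family members were chosen by name only.

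Myotubularins are phosphatases of phosphoinositides, the membrane lipids that mark endosomes and autophagosomes. The active members remove the phosphate at the D-3 position of the inositol ring from PI3P, the lipid made chiefly by the kinase Pik3c3, and from its doubly phosphorylated derivative made by Pikfyve. Several members have lost the catalytic cysteine and act as partners of the active ones. Mtm1 and Mtmr2 are known from inherited diseases of muscle and of peripheral nerve, whereas Mtmr7 is best known from the brain.

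Male Sprague Dawley rats from Charles River entered the study at 7 weeks of age and were fed a fat-rich diet (59% of energy as fat), with oral dosing once a day over 6 weeks. The 3 groups of 5 liver samples received vehicle (0.5% methylcellulose), PF-04923503 at 10 mg/kg or PF-04923503 at 30 mg/kg, and all ate that diet, so that no group here was on ordinary chow. Each sample was hybridised to 1 Affymetrix array, and the labels do not state that the samples of a group came from different rats, so the error behind each p-value is the spread among these samples, which may be technical. The comparisons ask which transcripts differ between treated and vehicle livers at each dose and between the doses.

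Values are log2 expression values as deposited, on which 1 unit is a 2-fold step. Array medians lay between 6.08 and 6.12 and pairwise correlations over all probe sets between 0.989 and 0.996. Hepatocyte markers were well represented, with 11 of 12 passing the filter on low values at mean log2 values from 11.16 to 15.36, and 0 of 8 markers of neurons and neuroendocrine cells passed it. Levels of different probe sets are not set against each other, since each has its own brightness.

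Mtmr7 was read by 1 probe set. In the vehicle livers its log2 values were 6.51, 5.63, 5.93, 5.45 and 6.92 in samples 1 to 5. At 10 mg/kg they were 7.75, 8.15, 8.38, 7.79 and 7.84, and at 30 mg/kg they were 7.51, 8.46, 7.74, 6.47 and 6.97. Every 10 mg/kg liver lay above every vehicle liver, and at 30 mg/kg 4 of 5 livers did. The exception was 30 mg/kg sample 4, which lay below vehicle samples 1 and 5.

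The Mtmr7 mean was 6.09 ± 0.61 in vehicle, 7.98 ± 0.27 at 10 mg/kg and 7.43 ± 0.76 at 30 mg/kg (SD, n = 5 each). The level at 10 mg/kg was thus 3.72-fold that of vehicle, a log2 difference of 1.90 (95% confidence interval 1.18 to 2.61), and at 30 mg/kg 2.54-fold, a log2 difference of 1.34 (0.63 to 2.05). Both differences share the vehicle livers. Of 9540 genes tested, 4 had a larger positive difference at 10 mg/kg (Pnpla3, Scd, Hamp and the Ugt2b entry) and 4 at 30 mg/kg (Scd, Hamp, Pnpla3 and Rgs16). As Mtmr7 was chosen for its 10 mg/kg difference, the first rank restates that choice, and the second rests on the same vehicle livers. The 30 mg/kg mean was 0.55 below that of 10 mg/kg on the log2 scale, with an interval of the difference from -1.26 to 0.16 that includes 0. In the vehicle livers the probe set was dim, and only samples 1 and 5 exceeded the median of all values in the table, on which the filter rests.

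**Figure D1:**
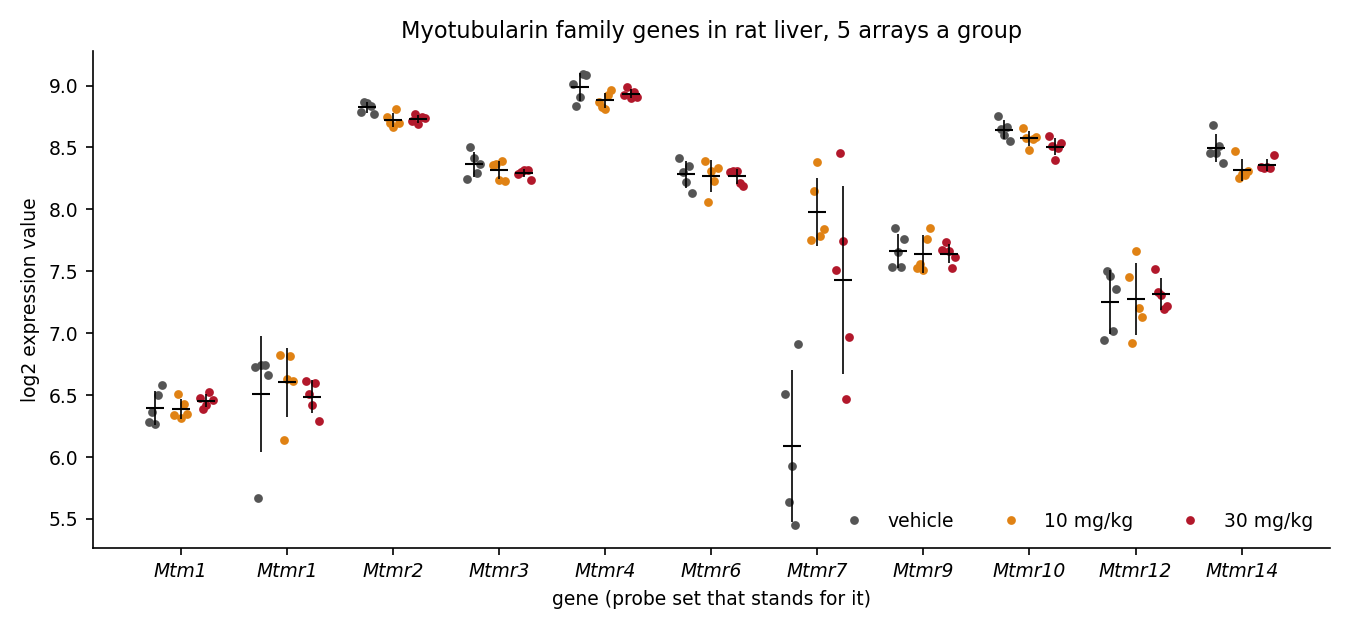
Log2 expression values of the 11 family genes that passed the filter, 1 point per array, with 5 arrays in each of the vehicle (grey), 10 mg/kg (orange) and 30 mg/kg (red) groups; the horizontal dash is the group mean and the vertical line 1 SD on either side. Mtmr7 ran from 5.45 to 8.46 over the 15 arrays, and the other genes spanned between 0.20 and 1.15 log2 units.

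Mtmr7 also varied widely within groups. Its SD within groups, pooled over the 3 groups, was 0.58 on the log2 scale, and 98.5% of the 9540 genes had a smaller one. Among the other family genes that SD ran from 0.046 for Mtmr2 to 0.33 for Mtmr1, against a median of 0.12 over all genes. The large value for Mtmr1 came with 1 low array, vehicle sample 2 at 5.67, while the other vehicle livers had between 6.66 and 6.75.

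Of the 12 family genes, 11 passed the filter, through 14 of the 20 probe sets. Counting Mtmr7, 1 of the 11 was called at 10 mg/kg (limma, Benjamini-Hochberg adjusted p under 0.05 over 9540 genes), where 0.105% of all genes were called. As Mtmr7 was chosen on that comparison, the count carries no information of its own. Of the other 10 genes, 0 were called in any comparison by limma. Against vehicle, 2 of the 10 had an unadjusted p under 0.05 at 10 mg/kg and 3 at 30 mg/kg, all with the lower mean in treated livers, where 13.3% and 16.1% of all genes had such a p. Between the doses 0 of the 10 did, against 5.82% of all genes. The groups of the 10 genes overlapped in each comparison with vehicle, while 2.44% of all genes had groups that did not overlap at 10 mg/kg and 3.21% at 30 mg/kg. The mean was lower than in vehicle for 8 of the 10 at each dose, against 58.2% and 62% of all genes, with a median log2 difference of -0.04 at both doses against -0.02 and -0.03 over all genes. By the adjusted p, 0% of all genes were called at 30 mg/kg, and 0% between the doses.

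Mtmr6 is a close relative of Mtmr7, and Mtmr9 is an inactive partner that binds both. Mtmr6 had a mean of 8.28 ± 0.11 in vehicle, 8.27 ± 0.13 at 10 mg/kg and 8.27 ± 0.06 at 30 mg/kg (SD, n = 5 each). Its log2 difference from vehicle was -0.02 at both doses, with an interval of -0.16 to 0.13 at 10 mg/kg and -0.16 to 0.13 at 30 mg/kg. Mtmr9 stood at 7.67 ± 0.14, 7.64 ± 0.15 and 7.64 ± 0.08, with a difference of -0.02 at each dose and an interval of -0.19 to 0.14 at both. The groups of both genes overlapped at both doses.

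Mtm1, Mtmr1 and Mtmr2 form the branch named for the founding member. Mtm1 differed from vehicle by -0.01 at 10 mg/kg and 0.06 at 30 mg/kg on the log2 scale, and Mtmr1 by 0.09 and -0.02. Mtmr2 had values of 8.78, 8.87, 8.86, 8.84 and 8.77 in the vehicle livers, between 8.66 and 8.81 at 10 mg/kg and between 8.69 and 8.77 at 30 mg/kg. Its log2 difference was -0.10 at 10 mg/kg (95% confidence interval -0.19 to -0.01; limma, adjusted p = 0.315) and -0.09 at 30 mg/kg (-0.18 to -0.01; limma, adjusted p = 0.279). The groups touched at both doses, and the gene did not pass the test.

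Mtmr3 and Mtmr4 carry a FYVE domain, a zinc finger of the kind that binds PI3P. Mtmr3 differed from vehicle by -0.05 at 10 mg/kg and -0.07 at 30 mg/kg on the log2 scale. The brightest of the 3 Mtmr4 probe sets gave -0.11 (95% confidence interval -0.22 to 0.01) and -0.05, and the other probe sets gave -0.06 and -0.06 at 10 mg/kg and -0.01 and 0.03 at 30 mg/kg in the fit without a filter.

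Mtmr14, also called Jumpy, is an active phosphatase of the family that acts in autophagy. It had values of 8.45, 8.68, 8.45, 8.51 and 8.37 in the vehicle livers, 8.47, 8.25, 8.28, 8.27 and 8.31 at 10 mg/kg and 8.34, 8.33, 8.34, 8.33 and 8.44 at 30 mg/kg. In each treated group 1 liver, 10 mg/kg sample 1 and 30 mg/kg sample 5, lay within the vehicle range and the other livers lay below it. The log2 difference was -0.18 at 10 mg/kg (95% confidence interval -0.30 to -0.05; limma, adjusted p = 0.235) and -0.14 at 30 mg/kg (-0.26 to -0.01; limma, adjusted p = 0.268). These differences were not called, and the vehicle mean was 1.13-fold and 1.10-fold that of the treated groups.

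Mtmr10, Mtmr11 and Mtmr12 belong to the inactive members. Mtmr10 had values between 8.56 and 8.76 in the vehicle livers, between 8.48 and 8.66 at 10 mg/kg and between 8.40 and 8.60 at 30 mg/kg. Its log2 difference at 30 mg/kg was -0.14 (95% confidence interval -0.24 to -0.03; limma, adjusted p = 0.219), and its other probe set gave -0.10. Mtmr12, known as a partner of Mtm1, differed by 0.02 at 10 mg/kg and 0.06 at 30 mg/kg, with intervals of -0.27 to 0.31 and -0.23 to 0.35. Mtmr11 did not pass the filter, with all 15 values between 3.97 and 4.35. The other 5 probe sets below the filter belonged to Mtmr1 (3 probe sets), Mtmr2 and Mtmr3. Over these 6 dim probe sets the log2 differences from vehicle ran from -0.03 to 0.06 at 10 mg/kg and from -0.42 to 0.08 at 30 mg/kg in the fit without a filter. The most negative value belonged to 1 dim probe set of Mtmr1, whose other probe sets gave -0.02, -0.06 and -0.17.

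**Figure D2:**
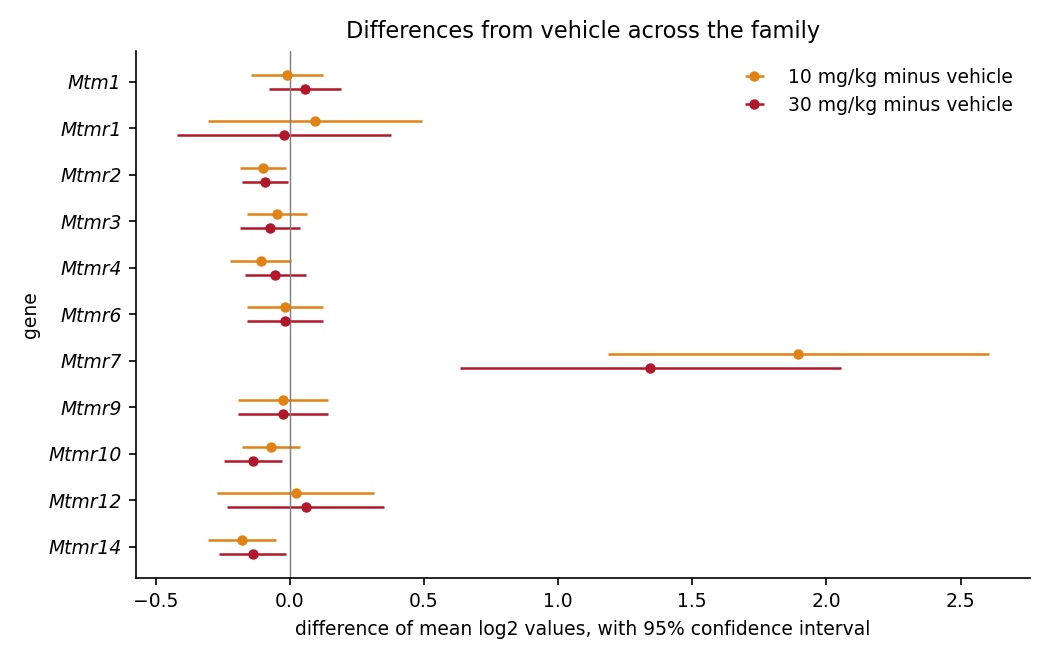
Difference of mean log2 values from vehicle for the 11 family genes, with 95% confidence intervals from limma, at 10 mg/kg (orange) and 30 mg/kg (red); the grey line marks no difference. The differences of the other 10 genes ran from -0.18 to 0.09, and those of Mtmr7, chosen for its 10 mg/kg difference, were 1.90 and 1.34.

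The rest of the phosphoinositide pathway was described with 4 lists, of which 73 of 84 genes were measured. No gene of these lists was called by limma at either dose or between the doses. An unadjusted p under 0.05 was found for 6 of 73 at 10 mg/kg, for 10 at 30 mg/kg and for 2 between the doses, or 8.22%, 13.7% and 2.74%, each below the share over all genes given above. Over the 73 genes the median log2 difference from vehicle came to -0.03 (10 mg/kg) and -0.02 (30 mg/kg).

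The list of kinases of PI3P and of its doubly phosphorylated derivative, with their complexes and some related lipid kinases, had 15 of 17 genes measured. Pik3c2g, a class II PI3-kinase found mainly in liver, had a log2 difference of -0.36 at 10 mg/kg (95% confidence interval -0.67 to -0.04; limma, adjusted p = 0.325) and -0.38 at 30 mg/kg (-0.69 to -0.06; limma, adjusted p = 0.239). Atg14, which directs the Pik3c3 complex to autophagy, had -0.20 and -0.17, and its 5 livers at 30 mg/kg all lay below the vehicle livers. Pik3c3 itself had -0.34 at 10 mg/kg, with a wide interval of -0.85 to 0.17, and Pikfyve had 0.03.

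Among the other phosphoinositide phosphatases 16 of 20 genes were measured, and 13 of the 16 had a lower mean than vehicle at each dose, against the 58.2% and 62% of all genes. This list includes Sbf1 and Sbf2, inactive members of the myotubularin family that carry other symbols. Sbf1 had log2 differences of -0.14 (95% confidence interval -0.24 to -0.03) and -0.13 (-0.23 to -0.02) at 10 and 30 mg/kg, with limma adjusted p = 0.275 and 0.238. Sbf2 had -0.07 and -0.05. Inpp5a, a 5-phosphatase of soluble inositol phosphates, had -0.12 at 30 mg/kg (limma, adjusted p = 0.223), with its groups apart.

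The 25 measured effectors of PI3P on endosomes and autophagosomes had 0 members at an unadjusted p under 0.05 at either dose (limma), with log2 differences from -0.10 to 0.12 at 10 mg/kg and from -0.15 to 0.12 at 30 mg/kg. In class I PI3-kinase and insulin signalling 17 of 20 genes were measured. Rictor, a subunit of mTOR complex 2, had a log2 difference of -0.25 at 30 mg/kg (95% confidence interval -0.36 to -0.14; limma, adjusted p = 0.0979), the smallest adjusted p reached by any gene at that dose, although not by Rictor alone, and Tsc1, an inhibitor of mTOR complex 1, had -0.26 (-0.42 to -0.10; limma, adjusted p = 0.156). Irs2, an adaptor of the insulin receptor, had 0.53 at 30 mg/kg and -0.07 at 10 mg/kg. Akt2, a kinase downstream of the insulin receptor, had 0.16 at 10 mg/kg. None of these passed the test. Over the 73 genes the groups did not overlap for 2 at 10 mg/kg (Akt2 higher, Rictor lower) and for 5 at 30 mg/kg (Irs2 higher, and Atg14, Inpp5a, Rictor and Tsc1 lower), against the 2.44% and 3.21% of all genes given above.

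Mtmr7 was then set against the genes of lipogenesis, the synthesis of fatty acids and their storage as triglyceride, on the same arrays. Mtmr7 and most lipogenic genes had higher means in the treated livers (25 of 26 at 10 mg/kg and 24 at 30 mg/kg, against 41.8% and 38% of all genes; 1, Fads1 at 10 mg/kg, was called), so a correlation over all 15 arrays would restate that difference. The relation was therefore taken within groups, from each array's deviation from its group mean, and in a limma fit of every gene on group and on the Mtmr7 value of the array. Of 27 lipogenic genes listed 26 were measured. In that fit 23 of the 26 had a positive slope, against 52.8% of all genes. An unadjusted p under 0.05 was reached by 15 of the 26, or 57.7%, all with a positive slope, against 8.07% of the 9539 genes other than Mtmr7. Many lipogenic genes had their highest or lowest value in the same liver, as given below, so the 26 are not separate observations. The list was also chosen with earlier results of these data known. After Benjamini-Hochberg adjustment over the 9539 genes 0 of the 26 were called, and 0% of all genes were (limma). The smallest adjusted p of the list was 0.135, for Acsl5, and of all genes 0.124. The median Pearson r over deviations was 0.59 for the lipogenic genes and 0.02 for all genes.

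**Figure D3:**
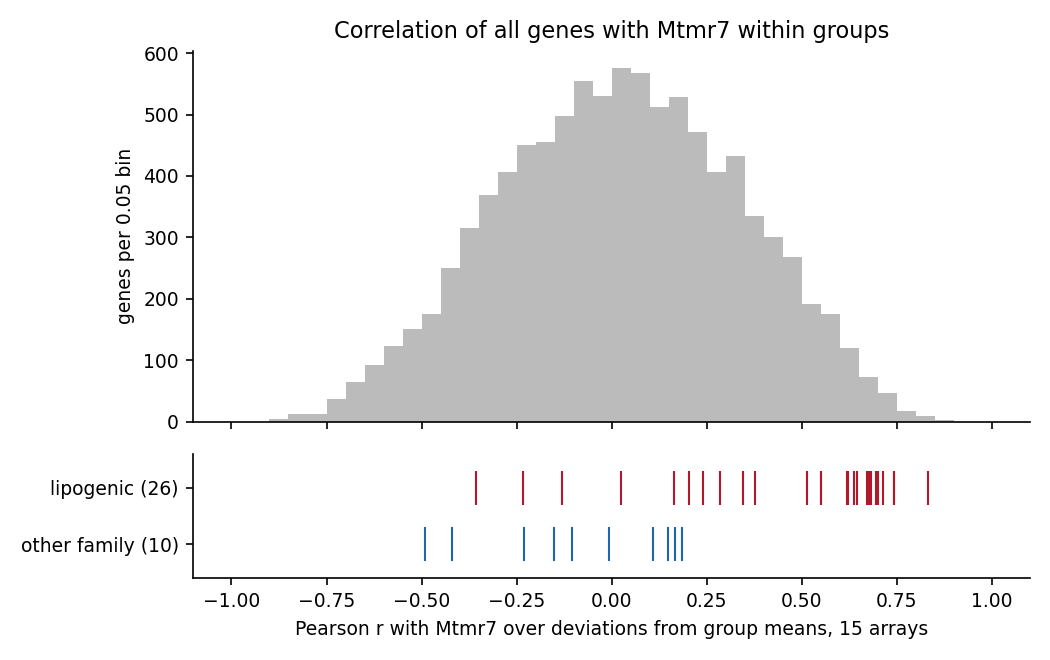
Pearson r with Mtmr7 over deviations from group means on 15 arrays: the histogram counts all 9539 other genes in bins of 0.05, and the ticks below mark the 26 lipogenic genes (red) and the 10 other family genes (blue). The lipogenic genes ran from -0.36 to 0.83 with a median of 0.59, and the family genes from -0.49 to 0.18.

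Acsl5, an acyl-CoA synthetase that activates fatty acids and responds to SREBP-1c, followed Mtmr7 most closely among the lipogenic genes. Its log2 values were 12.09, 11.81, 11.83, 11.17 and 12.19 in vehicle samples 1 to 5, 12.52, 12.69, 12.71, 12.56 and 12.39 at 10 mg/kg and 12.33, 12.60, 12.42, 12.10 and 12.06 at 30 mg/kg. The lowest and the highest vehicle liver for Acsl5 were also the lowest and the highest for Mtmr7, and at 10 mg/kg and at 30 mg/kg the highest liver was the same for both genes. The lowest treated livers differed. For Acsl5 it was sample 5 at both doses, and for Mtmr7 sample 1 at 10 mg/kg and sample 4 at 30 mg/kg. Over deviations of the 15 arrays r was 0.83 and Spearman's rho 0.95 (two-sided permutation within groups, p = 0.00014 and 2e-05, unadjusted). Over the deviations of the 10 treated arrays from their dose means r was 0.91 and rho 0.95 (two-sided permutation within doses, p = 0.00243 and 0.00099, unadjusted). Without the 2 arrays whose Mtmr7 deviation lay farthest from the median deviation, r was 0.77 over the 15 arrays and 0.90 over the treated ones. The second Acsl5 probe set, which is dimmer, gave an r of 0.62 over deviations.

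Among enzymes of fatty acid synthesis, Acacb and Acaca, the isoforms of the acetyl-CoA carboxylase that the compound inhibits, had r = 0.71 and 0.70 over deviations (two-sided permutation, p = 0.004 and 0.0202, unadjusted). A second, dimmer Acaca probe set gave 0.24. Fasn, the fatty acid synthase, had r = 0.74 (permutation p = 0.0141), Acly, which supplies cytosolic acetyl-CoA, 0.68 (permutation p = 0.0189) and Elovl6, an elongase, 0.70 (permutation p = 0.0259). The desaturases Scd, Fads1 and Fads2 had 0.62, 0.67 and 0.64. Pnpla3, a lipase of lipid droplets, had r = 0.74 (permutation p = 0.0167) and ran from 5.78 to 9.78 in vehicle livers and from 7.82 to 12.29 at 30 mg/kg. Of the regulators, Srebf1, which encodes SREBP-1c, had 0.55 (permutation p = 0.0835) and Mlxipl, which encodes ChREBP, 0.17 (permutation p = 0.613). Over the 26 relations computed, the permutation p was under 0.05, unadjusted, for r in 12 and for rho in 6. An adjustment over the genes compared had been planned and was not made, because the list was chosen with results known. These p-values therefore call no single gene. Lpin1, Mid1ip1 and Aacs had negative r, the lowest at -0.36 for Aacs.

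Much of this relation lay in a few livers. Vehicle sample 5 had the highest Mtmr7 of its group and was the highest vehicle liver for 13 of the 26 lipogenic genes. At 30 mg/kg sample 2 had the highest Mtmr7 and was highest for 17 of the 26, and samples 5 and 4, with the lowest Mtmr7, were lowest for 17 and 7. In the 10 mg/kg group, where Mtmr7 varied least, sample 3 had the highest Mtmr7 but was highest for 1 lipogenic gene, whereas sample 4 was highest for 17 with an Mtmr7 value of 7.79, near the bottom of its group. Vehicle sample 1 had the second highest Mtmr7 of its group and was lowest for 12 of the 26. Without vehicle sample 5 and 30 mg/kg sample 2, the median r over deviations was 0.26 in place of 0.59, with 20 of 26 above 0. Among those with larger values, Fasn then had 0.46, Acaca 0.36 and Scd 0.21, while Fads1 had 0.68, Fads2 0.63 and Acacb 0.58. Over the 10 treated arrays alone, centred on each dose mean, the median r was 0.62, with 24 of 26 above 0, and the permutation p within doses was under 0.05, unadjusted, for 2 of the 26. Without 30 mg/kg samples 2 and 4 that median was 0.40, with 22 of 26 above 0. The same r without centring takes in the difference between the doses, in which Mtmr7 and 22 of the 26 lipogenic genes had the lower mean at 30 mg/kg. Its median was 0.65, with a permutation p under 0.05, unadjusted, for 14 of the 26.

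**Figure D4:**
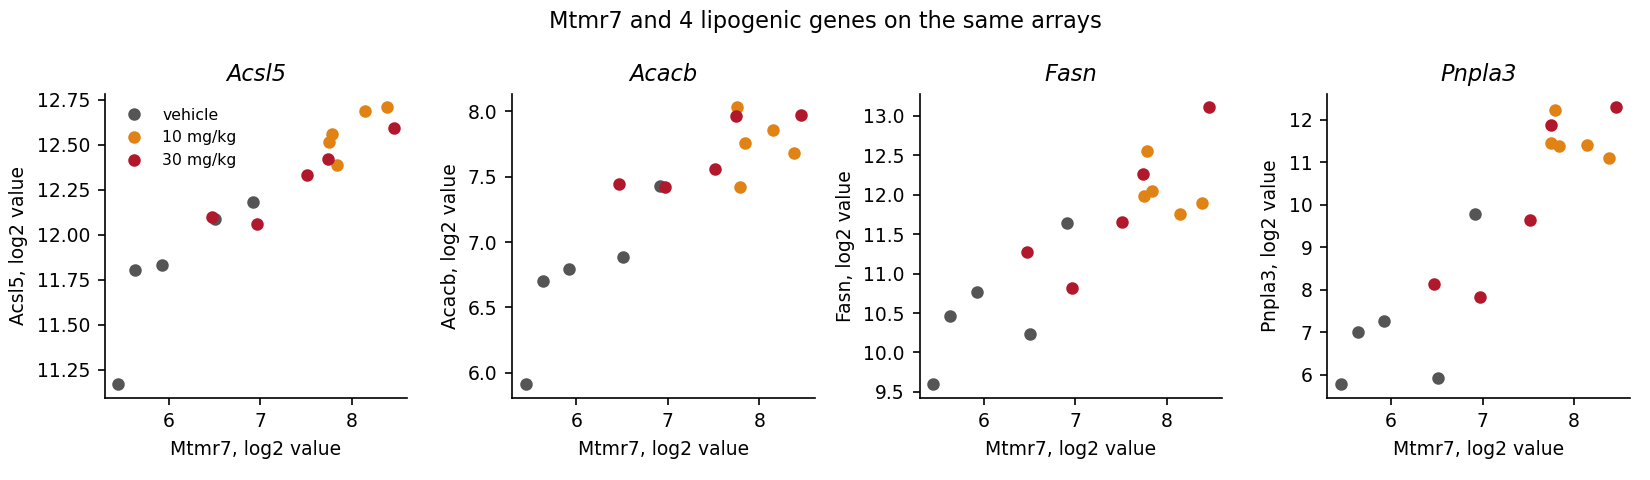
Log2 values of Acsl5, Acacb, Fasn and Pnpla3 (vertical axes) against the log2 value of Mtmr7 (horizontal axis), 1 point per array, coloured by group (vehicle grey, 10 mg/kg orange, 30 mg/kg red). The 30 mg/kg livers spread from 6.47 to 8.46 in Mtmr7, and the 10 mg/kg livers lie together between 7.75 and 8.38.

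Of the 10 other family genes, 0 had an unadjusted p under 0.05 in the fit on Mtmr7 (limma, 0 called), 4 had a positive slope, and their r over deviations ran from -0.49 for Mtmr14 to 0.18 for Mtmr9. Of the 73 phosphoinositide genes, 3 reached an unadjusted p under 0.05, or 4.11% against 8.07% of all genes, and 0 were called, with a median r of 0.05.

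The genes most like Mtmr7 over the values of all 15 arrays, group differences included, were Pdk1, a kinase that inhibits pyruvate dehydrogenase (r = 0.94), Acsl5 (0.94), Dbi, which encodes an acyl-CoA binding protein (0.92), Fads1 (0.91) and C2h4orf3 (0.91). Over deviations from group means on 15 arrays the highest r belonged to Slc2a5, a fructose transporter (0.87), Tent5c, a poly(A) polymerase (0.86), Pdk1 (0.86), Sirt5, a mitochondrial deacylase (0.84), and Plxna2, a semaphorin receptor (0.84). The lowest belonged to Sult1c3, a sulfotransferase (-0.88), Nt5dc2 (-0.86), Pnp, a purine nucleoside phosphorylase (-0.86), Stmn1, a tubulin-binding protein (-0.85), and Nfe2, a transcription factor of blood cells (-0.84). These genes were picked for their r, which is a description without a p, and the limma adjusted p of each in the fit on Mtmr7 was at least 0.124. Tent5c followed Mtmr7 within groups but its means were 7.82, 7.78 and 7.51 in vehicle, 10 mg/kg and 30 mg/kg. Of these genes, Pdk1 had a second probe set with r = 0.57 over deviations, Plxna2 others with 0.81 and 0.68 and Pnp another with -0.65.

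Markers of other liver cells and of RNA quality were read on the same arrays. In bulk tissue, fewer cells of a type and less RNA per cell cannot be told apart. The mean log2 value over the 10 measured markers of Kupffer cells and macrophages ran from 9.02 to 9.56 in vehicle, 8.55 to 9.10 at 10 mg/kg and 8.42 to 9.37 at 30 mg/kg, and all 10 had a lower mean than vehicle at both doses. The mean over 9 endothelial markers ran from 8.77 to 8.94, 8.45 to 8.76 and 8.49 to 8.81 in the same order, and all 9 had a lower mean than vehicle at both doses. The mean of the 10 measured stellate cell and matrix markers ran from 7.76 to 8.004 in vehicle, 7.60 to 7.77 at 10 mg/kg and 7.57 to 8.10 at 30 mg/kg, and 10 of the 10 had a lower mean than vehicle at 10 mg/kg (median log2 difference -0.23) and 7 at 30 mg/kg (-0.13). Over all genes the mean was lower for 58.2% and 62%. At 10 mg/kg an unadjusted p under 0.05 (limma) was reached by 7 Kupffer cell, 3 endothelial and 4 stellate cell markers, against 13.3% of all genes. At 30 mg/kg it was reached by 2, 4 and 0, against 16.1%, and 0 of these markers were called at either dose. Within groups the mean of these stellate cell and matrix markers had an r of -0.62 with Mtmr7. For 9 of these 10 the slope on Mtmr7 was negative, and 5 had an unadjusted p under 0.05, against 8.07% of all genes, among them Col1a1, a collagen chain, with r = -0.74 (limma, 0 called). The corresponding r was -0.05 for Kupffer cells and macrophages, -0.36 for endothelial cells and -0.29 for hepatocytes. The excess of the 3′ over the 5′ signal of Gapdh, a measure of RNA quality, averaged 0.39 in vehicle, 0.34 at 10 mg/kg and 0.37 at 30 mg/kg on the log2 scale. It had an r of 0.41 with Mtmr7 within groups. The same measure from hexokinase averaged 1.83, 1.93 and 1.80 in that order, and its r with Mtmr7 was 0.02. The part of these in the results on Mtmr7 was not tested.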

How the data were processed

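Livers were measured on an Affymetrix expression array for the rat. Values deposited by the authors are log2 expression values, summarised for each probe set and brought to nearly the same median on every array. Per the submitters' processing notes the tools included RMA, GCRMA (2.12.1) and limma (2.14.7), with no role given for any. Such normalisation hides a change shared by most genes. How it treated differences of dim probe sets is not known, since the tool that gave the values is not stated. Of 31099 probe sets, 57 were controls, and 20826 of the rest carried 1 gene symbol, 436 several and 9780 none. The filter on low values required the fifth highest of a probe set's 15 values to exceed the median of all values, and the brightest kept probe set stood for each of 9540 genes. A limma model (version 3.58.1, R 4.3.3; lmFit and eBayes) fitted the group means on all 15 arrays, Benjamini-Hochberg adjustment ran over all genes, and called means an adjusted p under 0.05. The relation to Mtmr7 was a second limma fit with group and the Mtmr7 value as terms, and permutation tests used 100000 draws. Centring the treated arrays on each dose was added after the data were seen. Both fits were run on simulated data in which genes varied independently of each other. Recovery was required of the group fit only, so this run does not show how well the fit on Mtmr7 finds associations. Precision is limited by the 5 arrays of each group.

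Named genes were all family genes, the lipogenic genes, the 5 most alike by each measure of r, up to 4 genes per pathway list with the smallest p, and the 3 nearest genes on the array on each side of Mtmr7. Pik3c3, Pikfyve, Sbf2, Col1a1, Rgs16, Hamp and Ugt2b were named after their values were seen. Family, lists and tests were chosen with earlier results of these data known. Markers of cholangiocytes, blood cells, lymphocytes with neutrophils, and adipocytes, with 1, 4, 5 and 2 measured, had an r with Mtmr7 within groups of -0.19, 0.07, 0.15 and 0.23. A planned comparison of protein sequences was not made here.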

Additional observations from a re-analysis of the deposited data

Results flagged for a closer look

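In 138 groups of 5 livers, formed by the 20 family probe sets and the 26 lipogenic genes, 5 values stood far from the other 4 of their group, by a gap above Dixon's critical value. Chance flags about 1 in 20 groups. For Mtmr1, vehicle sample 2 had 5.67, while the other vehicle livers had between 6.66 and 6.75. For Mtmr14, 10 mg/kg sample 1 had 8.47 against 8.25 to 8.31, and 30 mg/kg sample 5 had 8.44 against 8.33 to 8.34, so that in both treated groups 1 liver stood above the rest and within the vehicle range. For Aacs, an acetoacetyl-CoA synthetase, 10 mg/kg sample 4 had 7.92 against 6.81 to 7.11, and for Elovl5, an elongase, 30 mg/kg sample 4 had 13.29 against 13.53 to 13.58. The Mtmr7 values of no group stood out by this measure.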

How the results depend on the processing

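Each result was recomputed under 24 alternatives, of which 15 left out 1 array. The Mtmr7 log2 difference ran from 1.74 to 2.10 at 10 mg/kg and from 1.09 to 1.58 at 30 mg/kg. Between the doses it ran from -0.81 to -0.31. Mtmr7 has 1 probe set, so alternatives of filter, probe sets and model could not change its difference. Leaving out an array of the group not compared could not change it either. The ranges come from the fits with 1 array left out, and normalising again gave 1.89 at 10 mg/kg. The count of family genes called at 10 mg/kg, which is Mtmr7 alone, was 0 in place of 1 without a filter. It was also 0 with trend and robust options and with the replicate number as a block (the replicate block). With 1 array left out it ran from 0 to 1, being 1 only without vehicle sample 5 or 30 mg/kg sample 2. A stricter filter required all 15 values to exceed the median of all values. Mtmr7 does not pass that filter and was kept in by name, so its call there does not show that it survives stricter filtering. The number called over all 9540 genes moved too, from 10 to 3 without a filter, 16 for every probe set, 0 with the replicate block and between 0 and 26 with 1 array left out. The replicate numbers gave no clear sign of pairing among the livers. Deviations of same-numbered arrays correlated between -0.07 and 0.19, and 3 of 15 pairs exceeded 0.1. The best match bore the same number in 9 of 30 cases. With so few livers a group, this check cannot exclude a weak pairing. At 30 mg/kg the number over all genes was 0, but 10 for every probe set, between 0 and 5 with 1 array left out, and 5 without vehicle sample 5. No alternative called another family gene, a phosphoinositide gene or a gene associated with Mtmr7. Between 11 and 17 lipogenic genes had an unadjusted p under 0.05 on Mtmr7 (limma) with 1 array left out, and 23 probe sets did when every probe set was used. As a share of the lipogenic entries fitted, this ran from 42.3% to 65.4% over the 24 alternatives, against 57.7% in the main fit. Signal near background limits the vehicle values of Mtmr7, and the table carries no detection call.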

Other observations

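The genes on the array nearest to Mtmr7 were taken from the RefSeq gene table (assembly GRCr8, used for names and order only). Of those that passed the filter, 0 were called at either dose (limma). Over all genes 0.105% were called at 10 mg/kg and 0% at 30 mg/kg, so so small a set would rarely hold a call. Their values are as follows. Vps37a, a subunit of the ESCRT-I complex and the next gene on one side, had log2 differences from vehicle of -0.06 (95% confidence interval -0.38 to 0.25) at 10 mg/kg and -0.09 at 30 mg/kg. Cnot7, a deadenylase, had -0.02 and -0.04. Zdhhc2, a palmitoyltransferase, had 0.29 (-0.02 to 0.61; limma, adjusted p = 0.401) at 10 mg/kg and 0.28 at 30 mg/kg, with a vehicle mean of 5.93 against 6.22 and 6.21. On the other side the nearest genes on the array were Slc7a2, a transporter of cationic amino acids, and Pdgfrl. Both lay below the filter, and in the fit without one Slc7a2 had 0.14 and 0.04 and Pdgfrl -0.14 and -0.03. Mtus1, the next one on the array, had -0.03 at 10 mg/kg and 0.00 at 30 mg/kg.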
